A study of Homo sapiens with 16 samples.

Results

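The genes described here are 8 genes for proteins of the primary, or azurophil, granules of neutrophils: MPO, ELANE, PRTN3, AZU1, CTSG, LYZ, CFD and SRGN. They were chosen by gene symbol from a table of 60669 genes measured in MOLM-13 cells. MOLM-13 is a line of human acute myeloid leukaemia that carries an MLL fusion. Each symbol matched 1 entry, and all 8 genes passed the filter on low counts that left 16555 genes for testing. The study's title sets PRMT5, an arginine methyltransferase, against repression by PRC2, the complex in which EZH2 methylates histone H3 at lysine 27.

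The cells grew in RPMI1640 with 10% FBS and were treated for 4 days. EZH2i cells received an EZH2 inhibitor at 1 µM, PRMT5i cells a PRMT5 inhibitor at 1 µM, and combination cells both inhibitors. DMSO cells received 0.005% DMSO as the control. The labels name neither compound. Each group had 4 libraries made from total RNA, all from 1 cell line, and nothing in the labels says whether the replicates were separate cultures, so p-values measure only the spread between these libraries.

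Primary granules are filled at the promyelocyte stage of neutrophil development and hold proteins that kill microbes and digest tissue. MPO is the granule peroxidase, which makes hypochlorous acid. ELANE (neutrophil elastase), PRTN3 (proteinase 3) and CTSG (cathepsin G) are serine proteases, and AZU1 (azurocidin) is their relative without protease activity. LYZ is lysozyme, which cuts bacterial cell walls, CFD is complement factor D, a serine protease of the alternative complement pathway, and SRGN is serglycin, the proteoglycan on which granule proteins are packed. The genes are classical targets of the transcription factors PU.1, C/EBP, MYB and RUNX1 in immature myeloid cells, and MOLM-13 cells have monocytic features besides.

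AZU1, PRTN3, ELANE and CFD lie side by side on the plus strand of the short arm of chromosome 19, in GENCODE release 29 coordinates of GRCh38 at chr19:825097-832018, chr19:840960-848175, chr19:851014-856247 and chr19:859643-863630. MPO lies at chr17:58269856-58280935 on the minus strand, CTSG at chr14:24573522-24576260 on the minus strand, LYZ at chr12:69348341-69354234 on the plus strand and SRGN at chr10:69088106-69104811 on the plus strand. All are protein-coding genes. The exons of LYZ share 33.96% of their bases with an antisense gene, AC020656.1, and no source says whether counting used strand, so reads of that pair cannot be told apart and the LYZ values are uncertain to that extent. The other 7 genes share no exon base with another gene.

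Promoter sequences show which short letter patterns some of the genes share and which they do not. RefSeq windows on GRCh38.p14, from 250 bases before to 50 bases after the start of transcription, were at hand for 4 of the 8 genes and are printed 5′ to 3′ on the strand of the gene. No window is printed for MPO, ELANE, LYZ and SRGN. Capitals mark matches, on either strand, to 5 short letter patterns known from factors that act on granule genes: GAGGAA for PU.1, TTNNGNAA for C/EBP, AACNG for MYB, TGTGGT for RUNX and TATAA for the TATA box. No match overlaps another. The AZU1 window (chr19:827587-827886, plus strand) starts inside the gene bounds of the annotation, which begin further upstream. The PRTN3 window is chr19:840749-841048 on the plus strand, the CFD window chr19:859414-859713 on the plus strand and the CTSG window chr14:24576201-24576500 on the minus strand.
AZU1: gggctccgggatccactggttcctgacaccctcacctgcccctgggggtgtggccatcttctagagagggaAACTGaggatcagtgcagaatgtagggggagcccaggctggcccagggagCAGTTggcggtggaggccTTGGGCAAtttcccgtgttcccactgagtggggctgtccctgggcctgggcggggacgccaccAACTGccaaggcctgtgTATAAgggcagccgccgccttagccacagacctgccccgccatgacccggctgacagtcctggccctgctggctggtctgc
PRTN3: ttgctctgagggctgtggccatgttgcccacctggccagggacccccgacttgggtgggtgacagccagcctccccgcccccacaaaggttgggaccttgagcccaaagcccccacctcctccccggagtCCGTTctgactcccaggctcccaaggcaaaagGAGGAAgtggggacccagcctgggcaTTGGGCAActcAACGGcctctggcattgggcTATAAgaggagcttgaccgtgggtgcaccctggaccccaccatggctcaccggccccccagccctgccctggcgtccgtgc
CFD: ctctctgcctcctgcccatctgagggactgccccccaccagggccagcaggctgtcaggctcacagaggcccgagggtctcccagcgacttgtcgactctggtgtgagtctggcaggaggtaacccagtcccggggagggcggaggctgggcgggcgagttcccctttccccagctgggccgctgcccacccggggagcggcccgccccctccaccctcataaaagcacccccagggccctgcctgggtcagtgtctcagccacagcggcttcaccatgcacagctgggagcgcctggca
CTSG: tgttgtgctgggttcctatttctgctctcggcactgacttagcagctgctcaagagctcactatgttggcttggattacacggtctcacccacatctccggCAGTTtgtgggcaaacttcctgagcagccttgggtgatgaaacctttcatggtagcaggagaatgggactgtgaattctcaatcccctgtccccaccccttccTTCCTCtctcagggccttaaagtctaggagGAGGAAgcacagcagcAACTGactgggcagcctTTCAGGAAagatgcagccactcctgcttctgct

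AZU1 and PRTN3 each had a TATA match 31 bases before the start and a C/EBP match with the same letters, TTGGGCAA, at 111 bases before the start in AZU1 and 62 bases before it in PRTN3. AZU1 had 3 MYB matches and PRTN3 had 2. The PRTN3 window also held a PU.1 match 88 bases before the start, and the AZU1 window held none of those letters. CTSG had 2 PU.1 matches and 2 MYB matches, with a C/EBP match after the start, and the CFD window held none of the 5 patterns. Among 35116 RefSeq promoters of the same length, 27.85% held the PU.1 letters, 36.84% the C/EBP letters, 77.17% the MYB letters, 13.07% the RUNX letters and 20.44% the TATA letters, so each pattern is common. A match describes letters and no binding was measured.

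The 16 libraries held 31.1 to 52.9 M expected counts. The 8 genes together took 0.558% to 0.717% of the counts in EZH2i libraries, 0.832% to 0.885% in PRMT5i libraries, 0.793% to 0.846% in combination libraries and 0.551% to 0.651% in DMSO libraries. Levels are given as CPM, counts brought to a common library size with TMM scaling, and levels of different genes are compared per kilobase of exon. The 7 myeloid leukaemia markers used as a check of the cell line (CD33, FLT3, HOXA9, MEIS1, PTPRC, SPI1 and LYN) were all expressed, and 10 erythroid markers summed to 0.0669 to 0.342 CPM in any library. For MPO, ELANE, PRTN3, AZU1, LYZ and SRGN the DMSO group had the largest SD of the 4 groups. Each library was given a GC score, Pearson's r across 16427 genes between the GC content of the transcripts and the deviation of log2 CPM. That deviation is from the gene's mean over the 16 libraries. Genes are not independent replicates, and the score only describes a library. It was −0.288 in DMSO replicate 1, which also had the highest mitochondrial share at 1.70%, −0.162 in DMSO replicate 4, −0.00479 in DMSO replicate 3 and 0.412 in DMSO replicate 2.

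Levels per length ranked the 8 genes in much the same way in every group, with SRGN and PRTN3 at the top and MPO at the bottom. In DMSO cells SRGN averaged 2740 ± 1029 CPM per kilobase, PRTN3 1187 ± 406, LYZ 371 ± 107, ELANE 229 ± 124, AZU1 198 ± 99.0, CFD 157 ± 31.0, CTSG 108 ± 15.2 and MPO 4.45 ± 1.52 (SD, n = 4). By mean CPM in DMSO cells SRGN ranked 20th and PRTN3 79th among all genes tested, and MPO 7718th. SRGN, PRTN3 and LYZ did not overlap with one another, nor did MPO with CTSG, whereas LYZ with ELANE, ELANE with AZU1, AZU1 with CFD and CFD with CTSG overlapped between libraries and were not set apart beyond their spread. AZU1 had rank 3 of the 8 in EZH2i cells, with 367 ± 74.8 CPM per kilobase, rank 7 in PRMT5i cells, with 121 ± 14.7, and rank 5 in DMSO cells (SD, n = 4).

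**Figure D1:**
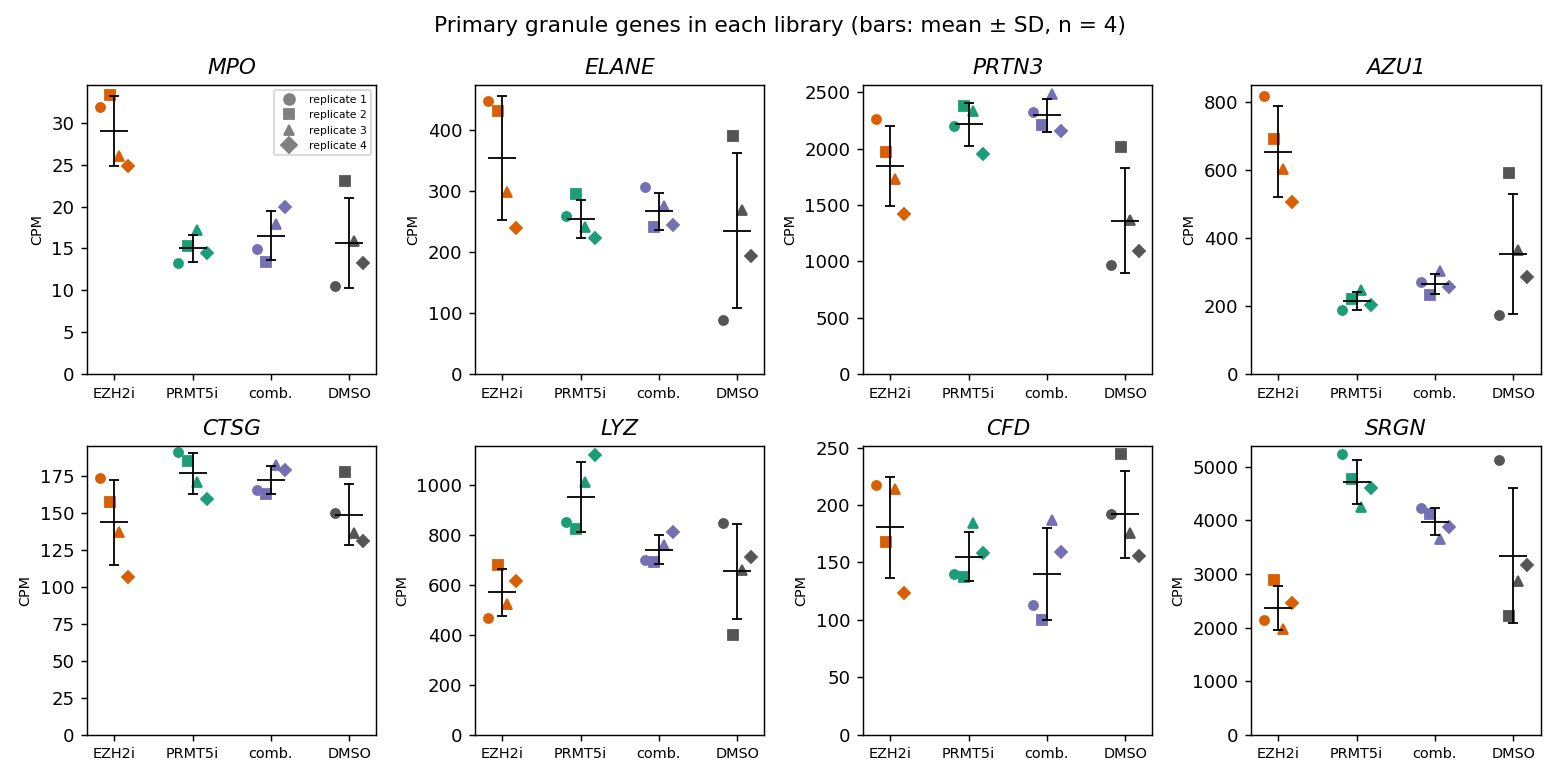
Levels of the 8 primary granule genes in every library. The y axis of each panel gives TMM-scaled CPM from 0, the x axis the treatment (comb. is the combination), symbols the replicate number, and bars the mean ± SD of 4 libraries. MPO sits at 24.9 to 33.4 CPM in EZH2i libraries, above all DMSO libraries, and AZU1 at 505 to 819 CPM in EZH2i libraries, against 188 to 249 CPM in PRMT5i libraries.

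EZH2i against DMSO asked what EZH2 inhibition alone did to these genes. MPO and AZU1 rose, each about 1.85-fold, and no gene of the 8 fell. Of all genes tested, 7.6% passed in this comparison, 4.11% higher and 3.49% lower, and the median log2 fold change was 0.19 over the 8 genes and −0.01 over all genes.

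MPO had 31.8, 33.4, 26.0 and 24.9 CPM in EZH2i libraries, against 10.5, 23.0, 15.9 and 13.3 CPM in DMSO libraries, replicates 1 to 4. Every EZH2i library was above every DMSO library, the only such case among the 8 genes in this comparison, where the 2 groups did not overlap for 10.6% of all genes. The log2 fold change was 0.89 (SE 0.19), with an adjusted p of 0.0113 in edgeR's quasi-likelihood test. It passed without any 1 of the 8 libraries, with adjusted p-values of 0.000408 to 0.048, and missed the threshold when the model held only these 2 groups, at 0.90 with an adjusted p of 0.105.

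AZU1 had 819, 693, 604 and 505 CPM in EZH2i libraries, against 173, 591, 366 and 285 CPM in DMSO libraries. DMSO replicate 2 reached into the EZH2i range and the other DMSO libraries lay below it. The log2 fold change was 0.89 (SE 0.26, adjusted p = 0.0437, edgeR). The call rested on many single libraries: without DMSO replicate 1, 3 or 4 the adjusted p was 0.0596, 0.0822 and 0.131, and without EZH2i replicate 1, 2 or 3 it was 0.114, 0.0894 and 0.0688, at log2 fold changes of 0.67 to 0.93. It was also lost with scaling to total counts (adjusted p = 0.0539) and in a model of the 2 groups only (adjusted p = 0.231, edgeR).

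ELANE had 448, 431, 298 and 239 CPM in EZH2i libraries, against 88.0, 390, 269 and 193 CPM in DMSO libraries. Its log2 fold change of 0.59 (SE 0.31) had an adjusted p of 0.222 in edgeR. PRTN3 had 2259, 1969, 1726 and 1420 CPM in EZH2i libraries, against 970, 2012, 1367 and 1093 CPM in DMSO libraries, with a log2 fold change of 0.44 (SE 0.18, adjusted p = 0.139, edgeR). For both proteases DMSO replicate 2 lay inside the EZH2i range, and for ELANE DMSO replicate 3 did too. Without DMSO replicate 2 ELANE stood at 0.95 (adjusted p = 0.02) and PRTN3 at 0.69 (adjusted p = 0.0035, edgeR), and without DMSO replicate 1 they stood at 0.33 (adjusted p = 0.431) and 0.32 (adjusted p = 0.302, edgeR). CTSG, the protease gene on chromosome 14, had 173, 157, 137 and 107 CPM in EZH2i libraries, against 150, 178, 137 and 131 CPM in DMSO libraries, a log2 fold change of −0.05 (SE 0.13, adjusted p = 0.828, edgeR).

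The remaining genes had log2 fold changes below 0 that did not pass. SRGN had 2144, 2895, 1968 and 2451 CPM in EZH2i libraries, against 5131, 2215, 2860 and 3164 CPM in DMSO libraries, at −0.50 (SE 0.19, adjusted p = 0.108, edgeR). LYZ stood at −0.20 (SE 0.18, adjusted p = 0.501) and CFD at −0.09 (SE 0.20, adjusted p = 0.815, edgeR). Without DMSO replicate 2, the DMSO library lowest in LYZ and SRGN, SRGN stood at −0.65 (adjusted p = 0.0102) and LYZ at −0.37 (adjusted p = 0.04998, edgeR). Without DMSO replicate 1, the highest in both, SRGN stood at −0.21 (adjusted p = 0.426) and LYZ at −0.04 (adjusted p = 0.929, edgeR).

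PRMT5i against DMSO asked the same of PRMT5 inhibition. PRTN3 and LYZ rose 1.63-fold and 1.46-fold, and AZU1 fell to 0.608 of its DMSO level. These 3 of 8 genes stand beside 35.3% of all genes that passed, 17.1% higher and 18.3% lower, so the share called was near that of all genes. The comparison uses the same DMSO libraries as the one before.

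PRTN3 had 2201, 2373, 2332 and 1954 CPM in PRMT5i libraries, against 970, 2012, 1367 and 1093 CPM in DMSO libraries. DMSO replicate 2 was the single DMSO library within the PRMT5i range. The log2 fold change was 0.70 (SE 0.18, adjusted p = 0.00635, edgeR), and it passed without any 1 library, at 0.56 to 0.95. AZU1, whose gene ends 8.94 kilobases before PRTN3 begins, had 188, 221, 249 and 203 CPM in PRMT5i libraries, against 173, 591, 366 and 285 CPM in DMSO libraries. DMSO replicate 1 was lower than every PRMT5i library and the other DMSO libraries were higher. AZU1 had a log2 fold change of −0.72 (SE 0.26, adjusted p = 0.0383, edgeR). It no longer passed without DMSO replicate 2 (−0.35, adjusted p = 0.169) or 3 (−0.70, 0.0701), or without PRMT5i replicate 1, 2 or 4 (adjusted p = 0.0786, 0.0579 and 0.085, edgeR), nor with scaling to total counts (0.0653) or the 2 groups only (0.106). With a block for replicate number the AZU1 call was lost as well.

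ELANE had 259, 296, 241 and 223 CPM in PRMT5i libraries, all within the DMSO range, with a log2 fold change of 0.12 (SE 0.30, adjusted p = 0.800, edgeR). CTSG had 191, 185, 171 and 159 CPM in PRMT5i libraries, at 0.25 (SE 0.13, adjusted p = 0.143), and passed only without DMSO replicate 2, at 0.34 (adjusted p = 0.0357, edgeR). MPO had 13.2, 15.3, 17.1 and 14.4 CPM in PRMT5i libraries, within the DMSO range, at −0.06 (SE 0.19, adjusted p = 0.836, edgeR). CFD stood at −0.31 (SE 0.20, adjusted p = 0.256, edgeR), with 140, 137, 184 and 158 CPM in PRMT5i libraries, against 192, 244, 176 and 156 CPM in DMSO libraries.

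LYZ had 854, 824, 1014 and 1122 CPM in PRMT5i libraries, against 850, 398, 659 and 712 CPM in DMSO libraries. DMSO replicate 1 lay inside the PRMT5i range and the other DMSO libraries below it. The log2 fold change was 0.54 (SE 0.18, adjusted p = 0.0266, edgeR), and the call was lost without DMSO replicate 3 (adjusted p = 0.0505) or without PRMT5i replicate 3 (0.0808) or 4 (0.0878), and in a model of the 2 groups only (0.0797). SRGN had 5227, 4773, 4254 and 4600 CPM in PRMT5i libraries, against 5131, 2215, 2860 and 3164 CPM in DMSO libraries. Again DMSO replicate 1 was as high as the PRMT5i libraries and the other DMSO libraries were lower. Its log2 fold change of 0.50 (SE 0.19) missed the threshold at an adjusted p of 0.05004 in edgeR and passed without DMSO replicate 1, at 0.76 (adjusted p = 0.000476), whereas without DMSO replicate 2 it stood at 0.34 (adjusted p = 0.115). Of 12 alternative settings beside those that only left out 1 library, 9 called SRGN higher. For none of the 8 genes did PRMT5i and DMSO libraries fail to overlap, against 33.8% of all genes.

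LYZ is also expressed by monocytes. Of 13 markers of monocytes and macrophages 11 were tested, and in PRMT5i cells 5 were higher and 2 lower, beside 17.1% of all genes higher and 18.3% lower. Their CPM summed to 295 to 357 in PRMT5i libraries, against 195 to 221 in DMSO libraries, and none of the 13 was at 0 in all libraries. Among these markers the exons of CD68 share 81.73% of their bases with AC016876.2 on the same strand, and those of FCGR1A 18.71% with AC243772.2. The values of CD68 and FCGR1A, and the sum, are uncertain to that extent. The part of the 13 markers in the LYZ result was not tested. In RNA from whole cultures, fewer cells of a type and less RNA per cell cannot be told apart.

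The combination against DMSO asked what both inhibitors did together. PRTN3 rose 1.69-fold and no other gene of the 8 passed, in a comparison in which 36.2% of all genes did, 17.6% higher and 18.5% lower. PRTN3 had 2327, 2210, 2484 and 2159 CPM in combination libraries, against 970, 2012, 1367 and 1093 CPM in DMSO libraries. All combination libraries were above all DMSO libraries, which held for PRTN3 alone of the 8 and for either direction in 33.1% of all genes. Its log2 fold change was 0.75 (SE 0.18, adjusted p = 0.00412, edgeR) and it passed without any 1 library.

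AZU1 had 270, 232, 304 and 256 CPM in combination libraries, inside the DMSO range, at −0.41 (SE 0.25, adjusted p = 0.218, edgeR). MPO had 14.9, 13.4, 17.9 and 19.9 CPM in combination libraries, also inside the DMSO range, at 0.08 (SE 0.19, adjusted p = 0.786, edgeR). CFD had 113, 100, 187 and 159 CPM in combination libraries, against 192, 244, 176 and 156 CPM in DMSO libraries, at −0.46 (SE 0.20, adjusted p = 0.0892, edgeR). Leaving out DMSO replicate 1 brought AZU1 to −0.65 (adjusted p = 0.0158) and SRGN to 0.52 (adjusted p = 0.00888, edgeR), whereas leaving out DMSO replicate 2 brought AZU1 to −0.05 (adjusted p = 0.861) and SRGN to 0.10 (adjusted p = 0.676, edgeR). Leaving out combination replicate 3 brought CFD to −0.63 (adjusted p = 0.0295, edgeR). Log2 fold changes were 0.18 for ELANE, 0.21 for CTSG, 0.18 for LYZ and 0.25 for SRGN with all libraries in the model.

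**Figure D2:**
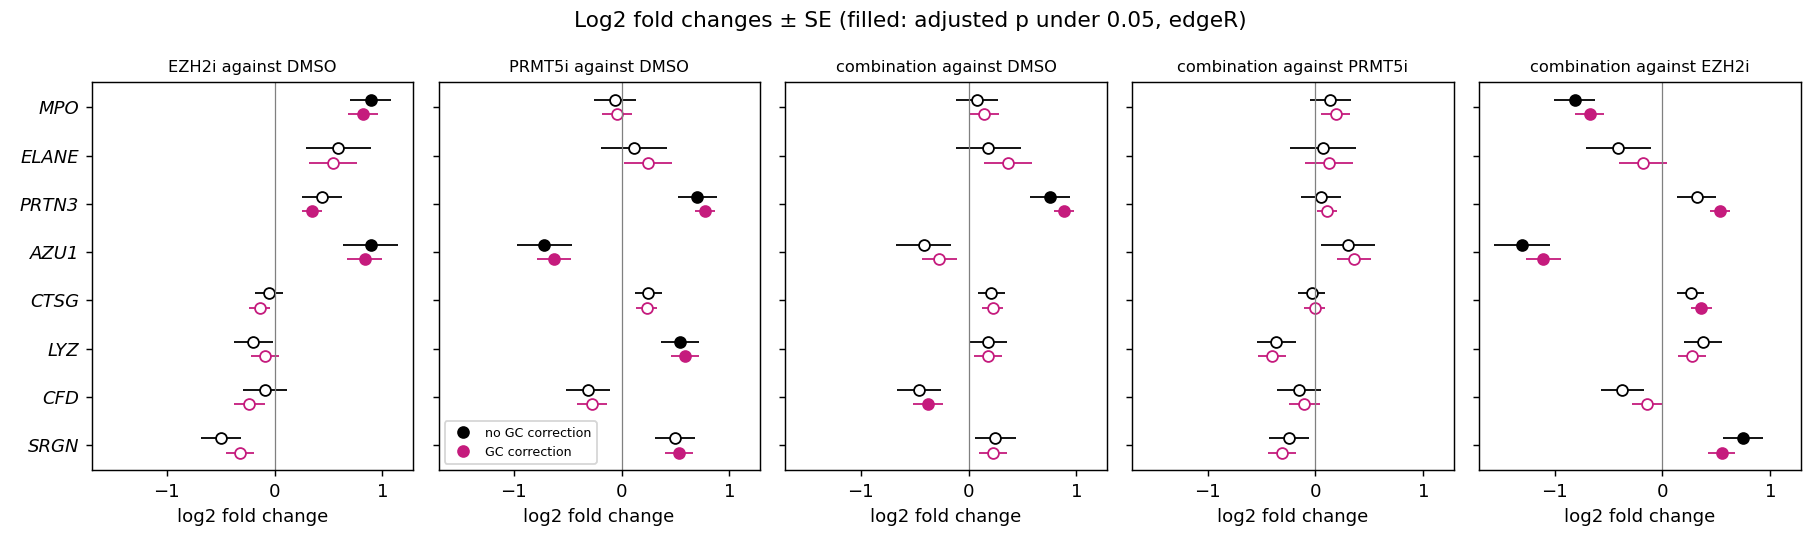
Log2 fold changes of the 8 genes in 5 comparisons. The x axis gives the log2 fold change with its SE as bars, black points come from the model without a correction for GC content and pink points from the model with it, and filled points have an adjusted p under 0.05 in edgeR. AZU1 stands at 0.89 with EZH2i and −0.72 with PRMT5i, and PRTN3 at 0.44 and 0.70.

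The combination against EZH2i shows what PRMT5i did in EZH2-inhibited cells, and here the 8 genes parted most. AZU1 and MPO fell and SRGN rose, beside 28% of all genes that passed, 13.4% higher and 14.6% lower. AZU1 had 270, 232, 304 and 256 CPM in combination libraries, against 819, 693, 604 and 505 CPM in EZH2i libraries, a log2 fold change of −1.30 (SE 0.26, adjusted p = 0.00117, edgeR). MPO had 14.9, 13.4, 17.9 and 19.9 CPM in combination libraries, against 31.8, 33.4, 26.0 and 24.9 CPM in EZH2i libraries, at −0.81 (SE 0.19, adjusted p = 0.00423, edgeR). For both genes every combination library was below every EZH2i library.

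SRGN had 4225, 4126, 3658 and 3881 CPM in combination libraries, against 2144, 2895, 1968 and 2451 CPM in EZH2i libraries, and all combination libraries were higher. Its log2 fold change was 0.75 (SE 0.19, adjusted p = 0.00683, edgeR). The AZU1, MPO and SRGN calls held without any 1 library. LYZ had 698, 694, 761 and 814 CPM in combination libraries, against 469, 680, 522 and 615 CPM in EZH2i libraries, again without overlap, but its 0.38 (SE 0.18) had an adjusted p of 0.133 in edgeR. These 4 of 8 genes without overlap compare with 31.6% of all genes. PRTN3 stood at 0.32 (adjusted p = 0.219), CTSG at 0.26 (adjusted p = 0.137), ELANE at −0.41 (adjusted p = 0.353) and CFD at −0.37 (adjusted p = 0.197, edgeR), and CTSG passed without EZH2i replicate 1, at 0.37 (adjusted p = 0.0446).

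The combination against PRMT5i shows what EZH2i did in PRMT5-inhibited cells. No gene of the 8 passed edgeR's test, none had an unadjusted p under 0.05 and none passed in DESeq2, beside 4.16% of all genes that passed in edgeR, 2.91% higher and 1.24% lower. LYZ had 698, 694, 761 and 814 CPM in combination libraries, against 854, 824, 1014 and 1122 CPM in PRMT5i libraries, and SRGN had 4225, 4126, 3658 and 3881 CPM, against 5227, 4773, 4254 and 4600 CPM. The LYZ and SRGN libraries did not overlap between these groups, which held for 18.9% of all genes. Their log2 fold changes were −0.36 (SE 0.18, adjusted p = 0.344) and −0.25 (SE 0.19, adjusted p = 0.613, edgeR). AZU1 stood at 0.30 (adjusted p = 0.661) and MPO at 0.14 (adjusted p = 0.828, edgeR).

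The interaction asks whether the effect of EZH2i differed between PRMT5-inhibited cells and cells without PRMT5i. No gene of the 8 passed in edgeR, 1 had an unadjusted p under 0.05 and none passed in DESeq2, and 0.29% of all genes passed in edgeR, 0.254% higher and 0.0362% lower. That gene was MPO, at −0.75 (SE 0.27, adjusted p = 0.408, edgeR), with EZH2i at 0.14 on top of PRMT5i and at 0.89 without it. Without DMSO replicate 2 the MPO interaction passed at −0.99 (adjusted p = 0.0427). AZU1 stood at −0.59 (adjusted p = 0.617) and ELANE at −0.52 (adjusted p = 0.683, edgeR), so a difference between the settings was not shown for these genes.

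The adjacent genes AZU1, PRTN3 and ELANE share a locus, a direction of transcription and a similar GC content (64.82%, 66.25% and 66.89% of transcript bases). Their count ratios within a library do not depend on library scaling. These ratios were chosen after the values were seen. AZU1 to PRTN3 was 0.362, 0.352, 0.350 and 0.356 in EZH2i libraries, against 0.179, 0.294, 0.268 and 0.261 in DMSO libraries. It was 0.0852, 0.0932, 0.107 and 0.104 in PRMT5i libraries and 0.116, 0.105, 0.122 and 0.118 in combination libraries. EZH2i libraries thus stood above, and PRMT5i and combination libraries below, every DMSO library. Despite the similar GC content, the DMSO ratios increased at every step from the lowest GC score to the highest (replicates 1, 4, 3 and 2). The ratios of the inhibitor groups did not follow the order of their scores. A part of the GC score in the ratios was not tested.

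Exact two-sided permutation tests over libraries, 15 in all for 3 ratios and 5 comparisons, reached the smallest p that 4 against 4 libraries allow, 0.0286, for AZU1 to PRTN3 in EZH2i, PRMT5i and the combination against DMSO and in the combination against EZH2i, and each had a Benjamini-Hochberg adjusted p of 0.0536 over the 15 tests. The log2 ratio differed by 0.53, −1.34, −1.09 and −1.62 in these 4 comparisons. As the ratios were chosen after the values were seen, the p-values of the 15 tests are no independent support. AZU1 to ELANE was 0.724 to 1.03 in PRMT5i libraries and 0.883 to 1.10 in combination libraries, against 1.36 to 1.97 in DMSO libraries, with the same exact p of 0.0286 and adjusted p of 0.0536 each. The combination against EZH2i, where EZH2i libraries had 1.61 to 2.11, gave the same p-values in this test. For EZH2i against DMSO the AZU1 to ELANE ranges overlapped, with an exact p of 0.114 (adjusted 0.171). ELANE to PRTN3 was 0.103 to 0.125 in PRMT5i libraries, against 0.0908 to 0.197 in DMSO libraries, where DMSO replicate 1 was the lowest, and its exact p was 0.143 (adjusted 0.179). For EZH2i against DMSO its exact p was 0.571 (adjusted 0.612). In combination libraries it was 0.109 to 0.132, against 0.169 to 0.219 in EZH2i libraries, without overlap (exact p = 0.0286, adjusted 0.0536).

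**Figure D3:**
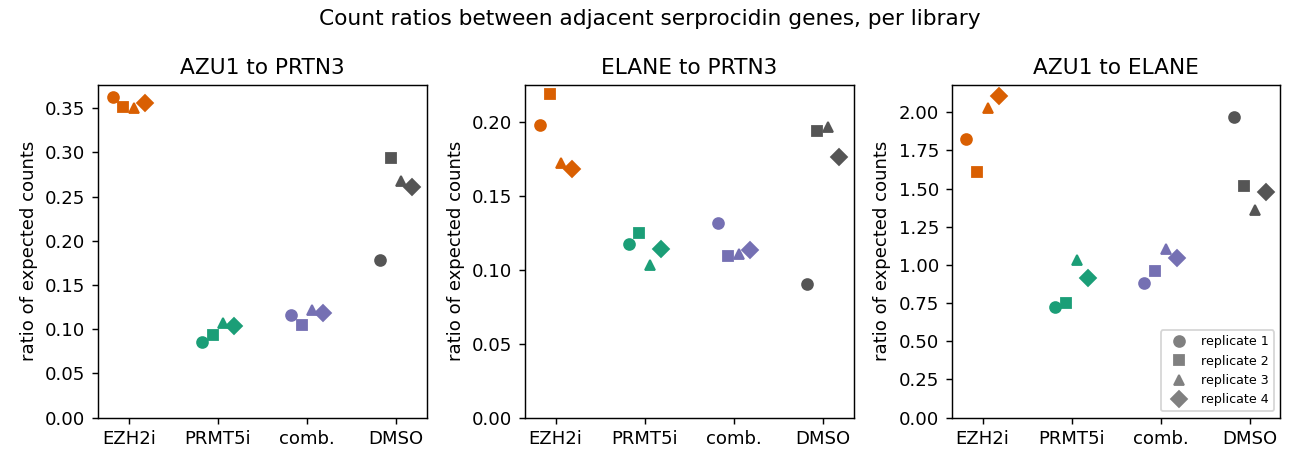
Ratios of expected counts between neighbouring granule genes. The y axis gives the ratio within each library from 0, the x axis the treatment (comb. is the combination), and symbols the replicate number. AZU1 to PRTN3 lies at 0.350 to 0.362 in EZH2i libraries, 0.0852 to 0.107 in PRMT5i libraries and 0.179 to 0.294 in DMSO libraries.

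Within 100 kilobases of ELANE, 5 further protein-coding genes were tested (PTBP1, LPPR3, MED16, R3HDM4 and ARID3A). With EZH2i 0 of the 5 passed, beside 7.6% of all genes, the log2 fold changes lying between −0.05 for R3HDM4 and 0.35 for MED16. With PRMT5i 1 of the 5 passed, beside 35.3% of all genes: R3HDM4 fell, at −0.54 (SE 0.13, adjusted p = 0.00322, edgeR). In the combination against EZH2i 2 of the 5 passed, beside 28% of all genes, R3HDM4 at −0.58 (adjusted p = 0.00272) and ARID3A at −0.29 (adjusted p = 0.0189, edgeR). LPO, the gene of lactoperoxidase, lies 1338 bases from MPO and belongs to the same enzyme family. LPO had 11.4, 8.86, 10.4 and 8.70 CPM in EZH2i libraries, against 13.97, 19.98, 16.02 and 14.3 CPM in DMSO libraries, below all of them, whereas MPO was above all of them. These 2 groups did not overlap for 10.6% of all genes. The log2 fold change of LPO was −0.71 (SE 0.16, adjusted p = 0.0129) with EZH2i, −2.0 (adjusted p = 1.07e-07) with PRMT5i and −2.42 (adjusted p = 4.96e-08, edgeR) with the combination. In these comparisons 7.6%, 35.3% and 36.2% of all genes passed. Other neighbours of MPO are not described here.

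**Figure D4:**
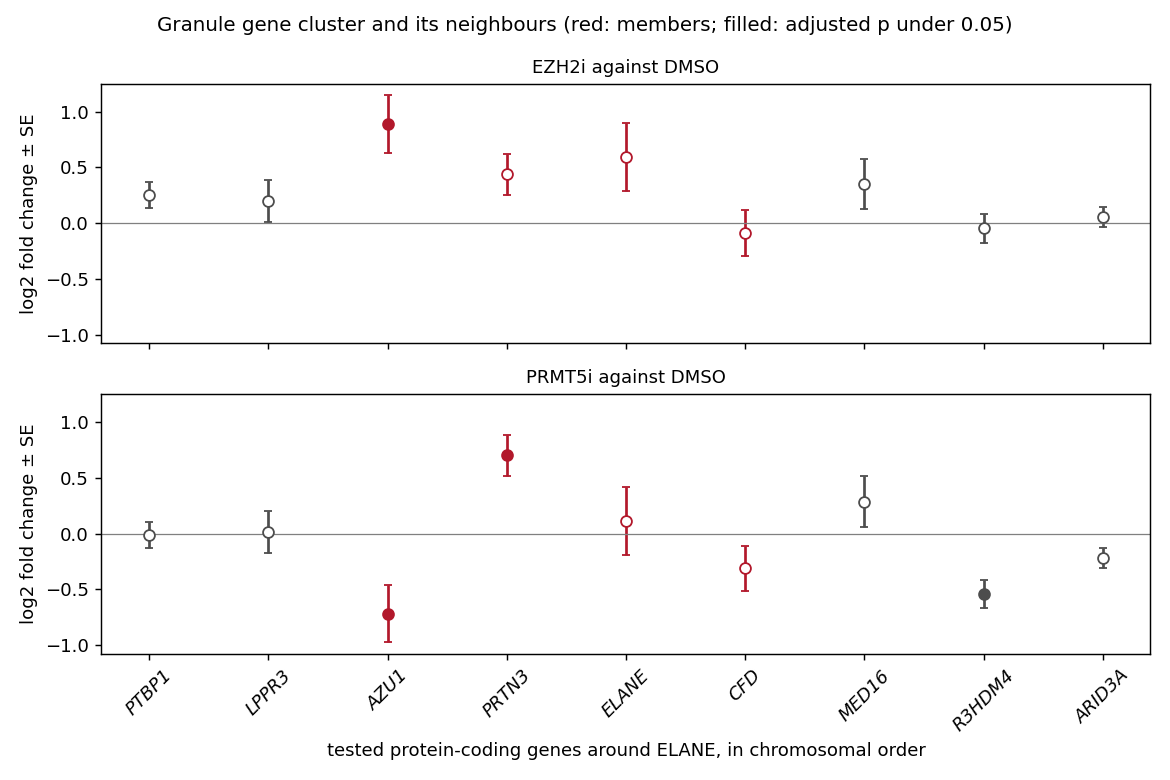
Log2 fold changes along the granule gene cluster. The x axis lists the tested protein-coding genes around ELANE in chromosomal order, the y axis gives the log2 fold change with its SE for EZH2i against DMSO (top) and PRMT5i against DMSO (bottom), red marks the granule genes and filled points have an adjusted p under 0.05 in edgeR. AZU1 stands at 0.89 with EZH2i and −0.72 with PRMT5i, while PRTN3 beside it stands at 0.44 and 0.70.

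For most of the 8 genes the DMSO libraries ran in the order of their GC score. From the lowest score to the highest (replicates 1, 4, 3 and 2), MPO, ELANE, PRTN3 and AZU1 increased at every step and LYZ and SRGN decreased at every step, while CTSG and CFD did neither. The transcripts of CFD, ELANE, PRTN3, AZU1 and MPO were richer in GC than 99.3%, 98.8%, 98.4%, 96.9% and 85.5% of the genes tested, and those of LYZ and SRGN than 16.5% and 4.17%. In the inhibitor groups scores ran from −0.229 to 0.444 with EZH2i, −0.12 to 0.0958 with PRMT5i and −0.266 to 0.0283 with the combination.

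Over all 16 libraries, with the group means taken out of both measures, log2 CPM of the 8 genes was set against the GC score. Pearson's r was 0.907 for PRTN3 and 0.863 for AZU1, each with an adjusted p of 0.00244, and Spearman's rho was 0.818 and 0.812, each with an adjusted p of 0.0133, in exact two-sided permutation tests within groups. For LYZ r was −0.759 (adjusted exact p = 0.0211) and rho −0.715 (adjusted exact p = 0.0218). MPO, ELANE, CTSG and CFD had r of 0.730 to 0.756 and rho of 0.615 to 0.726, and SRGN had r of −0.726 and rho of −0.679, with adjusted exact p-values of at most 0.0446 for both measures. The Benjamini-Hochberg adjustment covers the 8 genes. Without DMSO replicate 2 and EZH2i replicate 4, the libraries farthest from the median of the score so centred, r kept its sign in each gene, at 0.481 for CTSG to 0.826 for PRTN3 and at −0.674 for LYZ and −0.701 for SRGN. The relation was chosen for testing after the plot of levels against the score had been seen, and the score is made from the same libraries. By the way the score is made, genes rich in GC tend to rise with it and genes poor in GC tend to fall. The signs were thus largely set in advance, and these p-values are no independent support for the relation.

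A model with a correction for GC content in each library kept every call of the uncorrected model among the 8 genes. With it MPO rose by 0.82 with EZH2i (adjusted p = 0.00127), AZU1 by 0.83 (adjusted p = 0.00322) and also PRTN3 by 0.35 (adjusted p = 0.0175, edgeR) on the log2 scale. With PRMT5i AZU1 fell (−0.63, adjusted p = 0.00456), and PRTN3 (0.77, adjusted p = 4.55e-06), LYZ (0.59, adjusted p = 0.0015) and also SRGN (0.54, adjusted p = 0.00296, edgeR) rose. In the combination against EZH2i PRTN3 (0.53, adjusted p = 0.000283) and CTSG (0.36, adjusted p = 0.00835) passed as well, and in the combination against DMSO CFD did, at −0.37 (adjusted p = 0.0388, edgeR).

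**Figure D5:**
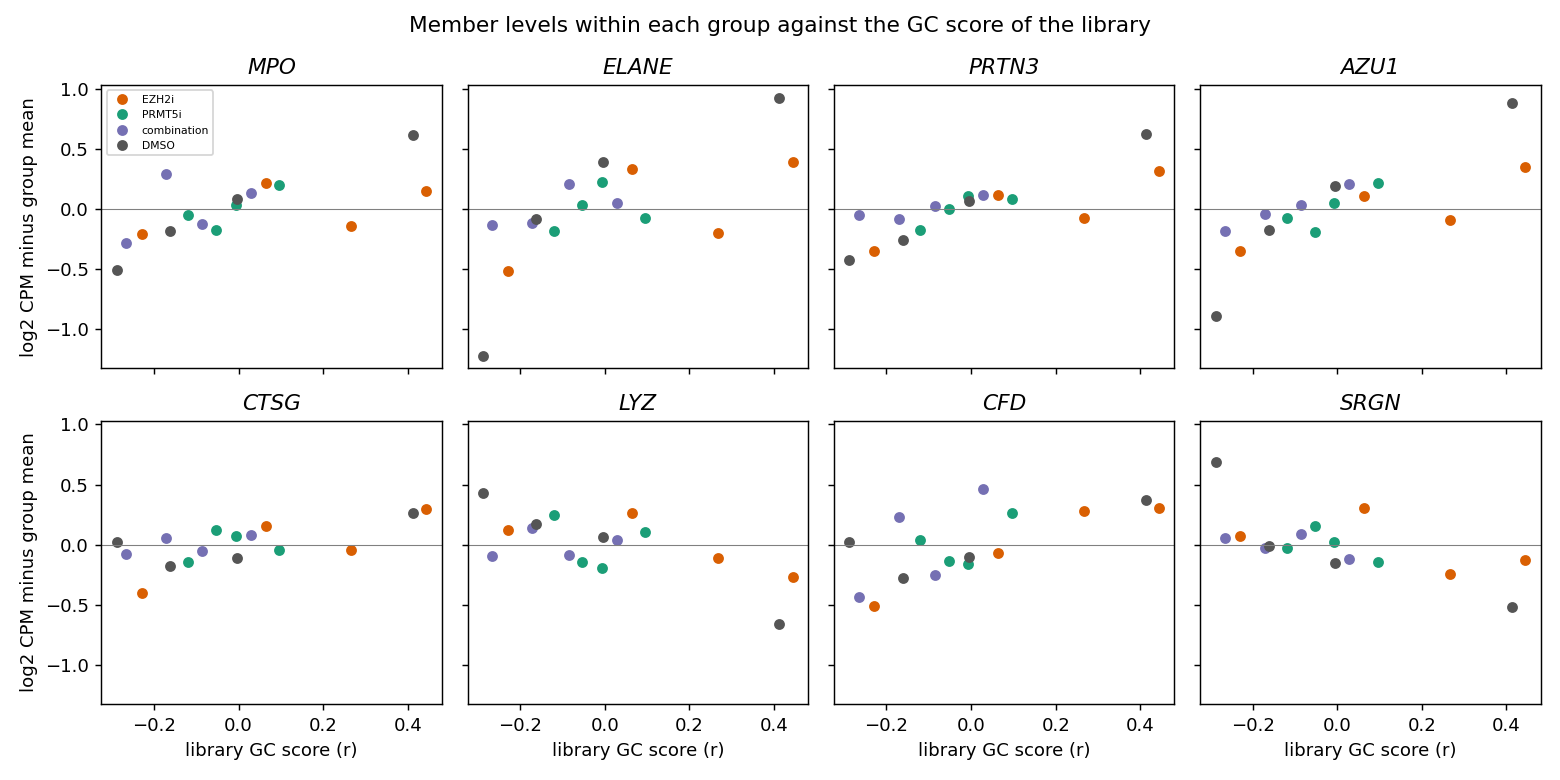
Levels of the 8 genes within each group against the GC score of the library. The x axis gives the GC score (Pearson's r across genes), the y axis log2 CPM minus the mean of the library's own group, and colours the treatment. AZU1 deviates by −0.89 in DMSO replicate 1 (score −0.288) and by 0.88 in DMSO replicate 2 (score 0.412), and SRGN by 0.69 and −0.52.

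Further genes of granule biology were read from lists. Of 8 other primary granule genes 4 were tested, and the 4 neutrophil defensin genes DEFA1, DEFA1B, DEFA3 and DEFA4 had 0 counts in every library. GUSB, a granule and lysosomal glucuronidase, rose with PRMT5i (0.76, adjusted p = 0.00162) and with the combination (0.82, adjusted p = 0.000926, edgeR). PRSS57, a granule serine protease, fell with the combination against DMSO (−0.48, adjusted p = 0.0202), and BPI, the bactericidal permeability-increasing protein, fell in the combination against EZH2i (−0.65, adjusted p = 0.0133, edgeR). CD63, a granule membrane protein, did not pass in any comparison with DMSO, and with EZH2i none of the 4 passed, beside 7.6% of all genes.

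Of 11 specific granule genes, which are made at a later stage, 3 were tested, and MMP8, CEACAM8 and CRISP3 had no counts. In PRMT5i cells 1 of the 3 rose and 1 fell, beside 17.1% of all genes higher and 18.3% lower. HP, haptoglobin, rose with PRMT5i (1.76, adjusted p = 1.18e-06, edgeR) at a low level, 5.20 CPM on average in PRMT5i cells and 1.53 CPM in DMSO cells. Of 10 gelatinase granule and secretory vesicle genes 7 were tested, and 1 rose and 2 fell with PRMT5i, beside the same shares of all genes. SLC11A1, a metal transporter of phagosomes, fell with PRMT5i (−2.68, adjusted p = 4.53e-07) and CYBB, the catalytic subunit of the phagocyte oxidase, rose (0.62, adjusted p = 0.0457, edgeR). Among 10 genes for granule protein processing, all tested, 3 rose and 2 fell with PRMT5i, beside 17.1% of all genes higher and 18.3% lower. CALR, the chaperone calreticulin, rose with EZH2i (0.84, adjusted p = 0.000791) and PRMT5i (0.80, adjusted p = 5.36e-05), and HAX1, a mitochondrial protein whose loss causes neutropenia, fell with EZH2i (−0.44, adjusted p = 0.0306) and PRMT5i (−1.16, adjusted p = 1.08e-06, edgeR). CTSC, the enzyme that activates the granule serine proteases, stood at −0.19 with EZH2i and −0.05 with PRMT5i and passed in neither.

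Of 7 inhibitors of the granule proteases 5 were tested. Against DMSO, 1 rose and 1 fell with EZH2i, beside 7.6% of all genes that passed. In PRMT5i cells 2 rose and 1 fell, beside 35.3%. SERPINB1, an inhibitor of elastase inside neutrophils, averaged 222 ± 19 CPM in EZH2i cells, 200.2 ± 9.65 in PRMT5i cells and 194 ± 15.2 in DMSO cells (SD, n = 4) and did not pass. A2M, a broad protease inhibitor, rose with EZH2i (0.80, adjusted p = 0.00712) and fell with PRMT5i (−1.05, adjusted p = 9.11e-05, edgeR), the 2 directions that AZU1 took. SERPINA1, the plasma inhibitor of elastase, reached 2.22 CPM at most. The exons of A2M share 8.788% of their bases with an antisense gene, A2M-AS1, so its values are uncertain to that extent. Exons also share bases with other genes in CEBPA (25.05% with AC008738.3 and 18.32% with AC008738.5) and CEBPB (11.81% with CEBPB-AS1). The same holds for CALR (9.948%), CD63 (9.001%), BPI (6.691%) and MYB (1.875%). The values of these genes carry the same uncertainty.

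Among 13 transcription factors of granulocyte development and of other myeloid fates 12 were tested; 2 rose and 2 fell with EZH2i, beside 7.6% of all genes that passed, and 2 rose and 2 fell with PRMT5i, beside 35.3%. CEBPA, SPI1 (PU.1) and MYB did not pass with either, with log2 fold changes of −0.13, 0.09 and 0.08 for EZH2i and −0.08, 0.44 and −0.08 for PRMT5i. CEBPE, a factor of later granulocyte stages, rose with EZH2i (1.55, SE 0.37, adjusted p = 0.0192, edgeR) at 5.56, 6.05, 2.04 and 2.10 CPM in EZH2i libraries, against 1.77, 1.995, 0.669 and 1.05 CPM in DMSO libraries. GATA2 rose with EZH2i as well (1.39, adjusted p = 0.0134), CEBPB fell with EZH2i (−0.58, adjusted p = 0.0172) and PRMT5i (−0.75, adjusted p = 0.000391), and IRF8, which favours monocytes over neutrophils, fell with EZH2i (−0.55, adjusted p = 0.000338) and rose with PRMT5i (0.33, adjusted p = 0.0014, edgeR).

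Of 12 markers of eosinophils, basophils and mast cells 7 were tested, with 1 higher and none lower with EZH2i, beside 7.6% of all genes that passed. Their CPM summed to 540 to 1155 in EZH2i libraries, against 273 to 607 in DMSO libraries, and the ranges overlapped. PRG2, the eosinophil granule major basic protein, passed (1.78, SE 0.51, adjusted p = 0.0432, edgeR), with 792, 826, 289 and 313 CPM in EZH2i libraries, against 286, 244, 58.8 and 59.6 CPM in DMSO libraries. The exons of PRG2 share 43.04% of their bases with AP000781.2 on the same strand, so its values are uncertain to that extent. Replicates 1 and 2 were higher than 3 and 4 in both groups, as they also were for CEBPE in EZH2i and in DMSO cells. For the 8 granule genes a term for replicates 3 and 4 against replicates 1 and 2 passed in none, beside 1.59% of all genes, and the part of these markers in the MPO and AZU1 results was not tested. Of 8 mature neutrophil markers 2 were tested, and they summed to 118 to 185 CPM in EZH2i libraries, 128 to 144 CPM in PRMT5i libraries and 113 to 171 CPM in DMSO libraries.

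The genes whose log2 CPM ran most like that of a granule gene over the 16 libraries differed between the neighbours in the cluster. For AZU1 they were FSCN1 (r = 0.98), ULK1 (r = 0.979) and STAT5B (r = 0.978), for PRTN3 USP20 (r = 0.975), FRMD4A (r = 0.962) and ECM1 (r = 0.960), for ELANE HNRNPUL1 (r = 0.976), BAG6 (r = 0.972) and BCL2L12 (r = 0.968), and for CFD VPS51 (r = 0.950), TRAPPC5 (r = 0.940) and FBXW5 (r = 0.939). For MPO they were YPEL3 (r = 0.952), GLTSCR1 (r = 0.939) and TNFAIP8L1 (r = 0.929), and for CTSG STAR (r = 0.936), GLB1 (r = 0.925) and LLGL2 (r = 0.925). For LYZ they were NXT2 (r = 0.953), TMEM19 (r = 0.952) and PRKAR1A (r = 0.945), and for SRGN UBXN8 (r = 0.983), TMEM59 (r = 0.973) and RIT1 (r = 0.972). These values of Pearson's r describe likeness only, were picked as the highest among 12861 protein-coding genes, and share the libraries and their GC scores. Among the 8 genes themselves AZU1 and MPO were alike (r = 0.924), as were LYZ and SRGN (r = 0.852), while AZU1 and PRTN3 were not (r = 0.0562) until the group means were taken out (r = 0.933).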

How the data were processed

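The authors deposited RSEM expected counts per gene for 16 libraries, unscaled; 11.99% of the values are not whole numbers. Per the submitters' processing notes, STAR 2.5.3 aligned the reads to GRCh38.p7 and RSEM counted them; annotation, strand setting, library kit and RSEM version are not given in the sources used here. Expected counts divide reads between genes that share sequence. Here counts were rounded, filtered with filterByExpr and TMM-scaled, and edgeR 4.0.16 (R 4.3.3) gave all 16 libraries 1 quasi-likelihood model, with a mean for each of 4 groups, with Benjamini-Hochberg adjustment over 16555 genes and a threshold of 0.05. Log2 CPM used a prior count of 2. Every adjusted p comes from this test unless DESeq2 1.42.0 or a permutation test (scipy 1.17.1) is named. The pipeline was tested on simulated data for EZH2i against DMSO over 16555 genes, where 71% of genes with a simulated log2 change of 1 were recovered, with 9 false calls. The simulated libraries had no differences tied to GC content, so these figures need not hold for the measured libraries.

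Groups come from sample titles. The members and lists were chosen with earlier results of these data known. Named genes were the 8 members and list genes with the smallest p (at most 4 for a list and comparison). Some list genes outside that rule, such as CEBPA, SPI1 and MYB, were named besides. Neighbours named were those within 100 kilobases of ELANE, and LPO beside MPO. For likeness the 3 protein-coding genes with the highest r were named. Other tools, scalings, filters, blocks, a lowess correction for GC content (available for 99.2% of tested genes) and leaving out each library were alternatives; the correction without DMSO replicate 1, the count ratios and the within-group correlation with the GC score were added after seeing the data. No pair of replicates agreed within sampling noise. Exon lengths and GC content are from GENCODE release 29, and GC content is the mean over a gene's transcripts, weighted by length. Plots used matplotlib 3.10.9.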

Additional observations from a re-analysis of the deposited data

How the results depend on the processing

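No log2 fold change of a single gene among the 8 that passed turned its direction in any alternative run, and for the 9 calls among the 8 genes 150 of 180 alternative values stayed past the threshold and 30 no longer passed. For the 39 values that were no call, 56 of 836 alternative values newly passed. With EZH2i against DMSO the 2 genes called higher became 1 with scaling to total counts and 0 in a model of the 2 groups only. They became 0 with replicates 1 and 2 only and 1 to 4 when 1 library was left out. The count was 3 with GC correction, with or without the replicate block or DMSO replicate 1. The 0 called lower became 1 under the replicate block with GC correction, 1 with replicates 3 and 4 only and 0 to 2 without 1 library. With PRMT5i against DMSO the 2 higher genes became 1 with the 2 groups only, 0 with replicates 1 and 2 and 1 to 3 without 1 library. They became 4 under the block with GC correction and 4 with the GC correction without DMSO replicate 1 (added after seeing the data). The count was 3 with total counts, without the filter on low counts, under the replicate block and with the term for replicates 3 and 4. It was also 3 with GC correction, with replicates 3 and 4 only and in DESeq2. The 1 lower gene, AZU1, became 0 with total counts, the 2 groups only, replicates 1 and 2 only and the replicate block (adjusted p = 0.0591, edgeR), and 0 to 1 without 1 library. With the combination against DMSO the 1 higher gene became 3 under the block with GC correction and under the correction without DMSO replicate 1, 4 with replicates 3 and 4, 0 with replicates 1 and 2 and 1 to 2 without 1 library; the 0 lower became 1 under GC correction with or without the block or DMSO replicate 1 and with replicates 1 and 2, and 0 to 1 without 1 library. Against PRMT5i, the 0 genes higher became 1 and the 0 lower 2 with the correction without DMSO replicate 1, and the 0 lower became 2 with the 2 groups only, 1 under the block with GC correction and 1 with replicates 3 and 4. Against EZH2i, the 1 higher gene became 2 with the 2 groups only, 3 under each GC correction, 4 with replicates 3 and 4, 0 with replicates 1 and 2 and 1 to 2 without 1 library, and the 2 lower became 1 with replicates 1 and 2. The interaction's 0 lower genes became 0 to 1 without 1 library. Over all genes, EZH2i against DMSO called 681 higher and 578 lower, against 1050 and 1099 in DESeq2, 1337 and 1843 with GC correction, 88 and 45 with the 2 groups only, 855 and 289 with total counts, and 293 to 2296 and 212 to 2310 without 1 library; the combination against DMSO called 2920 and 3070, against 3897 and 2021 with total counts. Of 24 same-number pairs of libraries 9 had r over 0.1 (−0.272 to 0.236), and 8 of 16 libraries correlated best with their own number. Whether replicate numbers pair the samples was not tested. Models of 2 groups or 2 replicates have fewer residual degrees of freedom; the cause of the other changes was not tested.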
